A study of Mus musculus with 4 samples.

Results

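Genes of the translation initiation factors (eIF) and elongation factors (eEF) carried 50 of the 15824 NFIC peaks called in mouse pancreas, at 33 of the 9086 genes to which a peak was assigned. Members were taken by name, as every peak whose listed gene symbol begins with Eif and a digit, or with Eef1 or Eef2, and *Eif2ak3*, the gene of the ER stress kinase PERK, was left out. The RefSeq annotation holds 70 protein-coding genes that fit these names, so 33 of 70 had a peak under their own symbol and 37 did not, among them *Eef1aknmt*, which is listed under an older symbol. NFIC is a transcription factor of the nuclear factor I (NFI) family, and its binding was mapped by chromatin immunoprecipitation and sequencing (ChIP-Seq). The group consisted of 3 NFIC ChIP libraries from the pancreas of wild-type mice of mixed strain, 8 to 12 weeks old in the deposited description and with a lower upper limit in the published text, made with the Bethyl antibody A303-123A, and 1 library of input DNA was sequenced beside them. The data used here are a single deposited peak list merged over the ChIP libraries, on the mouse genome build mm10. It holds no value for a single library, so the spread between replicates and the depth are not known from it, and no test was made. The 95% Wilson intervals below cover counting error only.

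Initiation factors bring the small ribosomal subunit, the initiator tRNA and the capped mRNA together and place them at the start codon. Elongation factors then deliver aminoacyl-tRNAs and move the ribosome along the mRNA, and kinases and binding proteins set the rate of both phases. Acinar cells of the exocrine pancreas are known for their very high output of secreted digestive enzymes, and so for a large demand on this machinery. NFI proteins bind DNA as dimers, on a palindrome made of the arm TGGC, 5 bases of any kind and the arm GCCA, here called the NFI full site.

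The sequences show what was found under the peaks that carry most of the description. The peak with the highest score of all members lay just upstream of *Eef2*, the gene of the translocation factor of elongation, at chr10:81176449-81176621 on the plus strand. Capitals mark its NFI full site, which had no mismatch.
Eef2: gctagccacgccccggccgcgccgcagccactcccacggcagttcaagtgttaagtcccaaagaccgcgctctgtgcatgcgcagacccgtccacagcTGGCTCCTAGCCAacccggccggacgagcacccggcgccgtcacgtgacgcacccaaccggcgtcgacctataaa
The promoter peak of *Eef1a1*, the gene of the factor that delivers aminoacyl-tRNA, at chr9:78481907-78482079, is shown on the minus strand, from which the gene is read. The peak held no NFI full site, but one with 1 mismatch lay outside it, from 250 bp before to 50 bp after the gene's start. Capitals mark 3 copies of the GC box bound by SP and KLF factors, written GGGCGG and read here on the other strand.
Eef1a1: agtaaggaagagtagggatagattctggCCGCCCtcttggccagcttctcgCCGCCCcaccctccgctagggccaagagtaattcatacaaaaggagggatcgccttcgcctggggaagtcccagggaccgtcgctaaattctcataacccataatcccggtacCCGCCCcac

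The exact NFI full sites shown next, away from any promoter, came from introns, intergenic DNA and a transcript end, and each has 6 bases on either side in the direction in which the gene is transcribed. Capitals mark the 13-base site, and the distance is from the transcription start site (TSS) to the centre of the peak.
Eif1b, 4294 bp: aaaccaTGGCTCCTGGCCAacacaa
Eif1b, 9368 bp: tggagtTGGCCTAGGGCCAtgtctg
Eef2k, -2185 bp: agcaccTGGCATGCAGCCAgatctt
Eef2k, 14157 bp: gacagcTGGCCGTTTGCCAgatggt
Eif4g3, 3106 bp: gttcttTGGCTTGCTGCCAgccagg
Eif4a3, 13796 bp: tgaggcTGGCAGGTTGCCAggggca
Eif2b1, 3468 bp: acccatTGGCCTCCCGCCAtctcag

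The sites with 1 mismatch under the peaks of *Eif1b*, *Eef2k*, *Eif4e3*, *Eif4g2* and *Eef1a1* are shown in the same way, with scores from 18.1 for *Eif1b* down to 4.38 for *Eef1a1*. Positions of the substitution are counted from 1 at the 5′ end of the site, with the base of the full site before the position and the base found in the genome after it.
Eif1b, -76910 bp, C4A: cagaacTGGAATTGAGCCAagcctt
Eef2k, 507 bp, T1A: ggtagaAGGCACAGTGCCAggcagt
Eif4e3, 61880 bp, T1A: agcccaAGGCACCCTGCCAagccag
Eif4g2, 588 bp, G10A: ggccgtTGGCGCGGGACCAgcgagg
Eif4g2, -168 bp, G10C: cgccacTGGCTTGGCCCCAgagcct
Eef1a1, -38817 bp, G3T: ttggaaTGTCCTGATGCCAatagcc

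Peaks at translation factor genes were of ordinary strength for this list. The peak score is the authors' own scale, which ran from 3.39 to 68.1 over all peaks, and the median was 6.57 for the 50 member peaks and 6.57 for all peaks. Among member peaks the quartiles were 5.38 and 8.51, against 4.98 and 9.16 for all peaks, and the highest score was 18.3. Of the member peaks, 10 (20%, 11.2 to 33.0) reached the upper quartile, to which 25.5% of all peaks belonged. They lay at 8 genes, *Eef2*, *Eif1b*, *Eef2k*, *Eif4e3*, *Eif2b2*, *Eif4g2*, *Eif4g1* and *Eif4ebp1*.

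**Figure D1:**
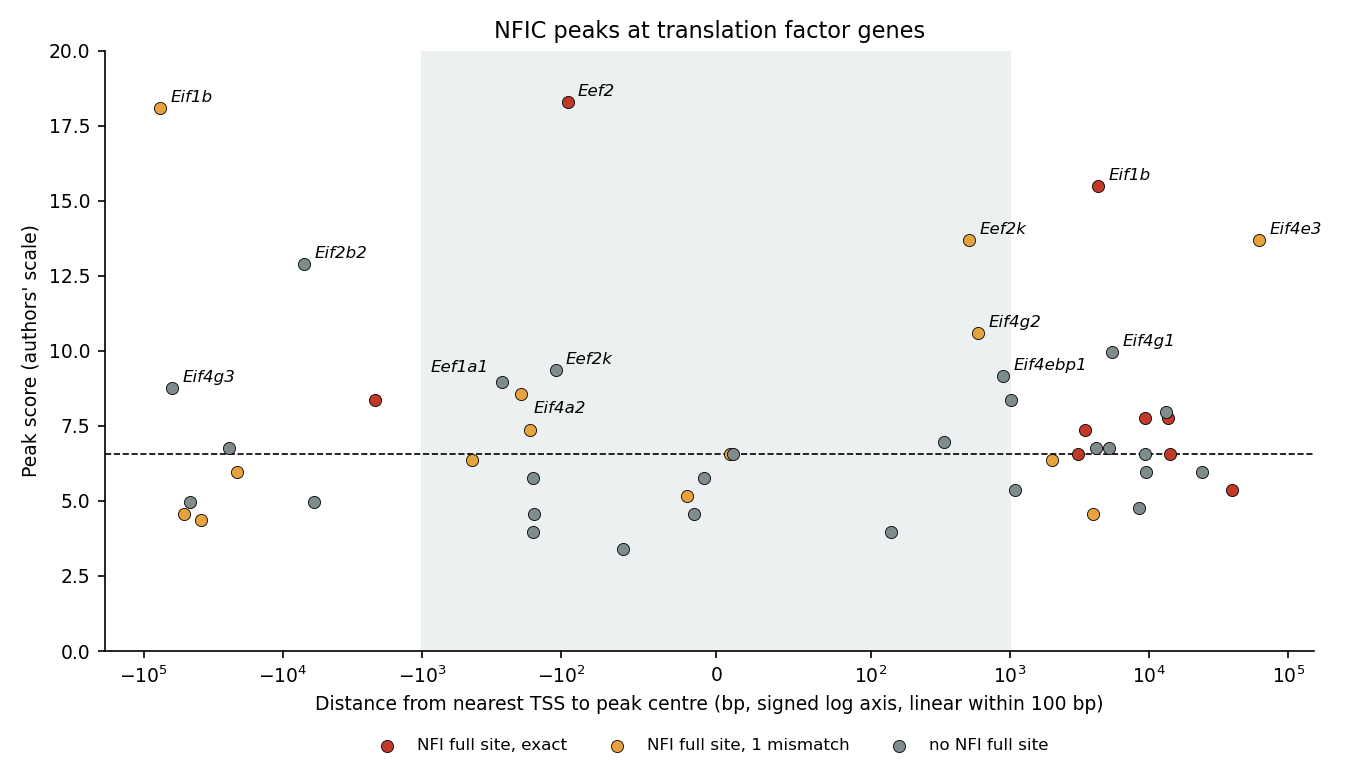
Peak score (authors' scale) against the distance in bp from the nearest TSS to the peak centre (signed log axis, linear within 100 bp) for the 50 translation factor peaks, 1 point per peak, coloured by the NFI full site in the 200-bp window. The shaded band spans 1000 bp on each side of the TSS, the dashed line is the median score of all peaks (6.57), and the highest points are *Eef2* at -96 bp (18.3) and *Eif1b* at -76910 bp (18.1).

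The share of members with a peak was 47.1% (33 of 70, 35.9 to 58.7), beside 37.2% of all 21000 protein-coding genes. A peak in the promoter window, from -1000 bp to the TSS, was present at 13 of 70 members (18.6%, 11.2 to 29.2), beside 10.7% of all protein-coding genes. Within 1000 bp on either side of the TSS, the count was 18 of 70 (25.7%, 16.9 to 37.0), beside 18.1%. In the first and the third of these, the background share lay inside the interval of the members, and in the promoter window it lay just below it. With the promoter window drawn from any RefSeq TSS, the members were again 13 of 70 and the background was 13.1%, inside the interval. The background takes in every gene, whether or not the tissue uses it, and the part of expression in these shares was not tested. Members with a peak mostly had a single one, 23 of 33 (69.7%), beside 61.2% of all genes with a peak, and 3 of 33 (9.09%) had 3 or more, beside 17.2%.

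Member peaks were closer to a TSS than the peaks of the whole list. Within 1000 bp of the TSS lay 20 of 50 (40%, 27.6 to 53.8), beside 27.4% of all peaks, and within 200 bp lay 14 (28.0%, 17.5 to 41.7), beside 16.0%. Over 10000 bp away lay 13 (26.0%, 15.9 to 39.6), beside 50.9% of all peaks. The median distance was 3287 bp for members and 10438 bp for all peaks. By the class of genomic element in the annotation, 20 member peaks were in introns, 15 in the promoter-TSS class, 12 intergenic, and 1 each in an exon, a 3′ UTR and a transcript end. The promoter-TSS class made up 30.0% of member peaks (19.1 to 43.8) and 20.7% of all peaks, while introns made up 40% and 40.8%. Peaks of the same gene share their locus, and *Eef2k* alone supplied 7 of the 50.

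**Figure D2:**
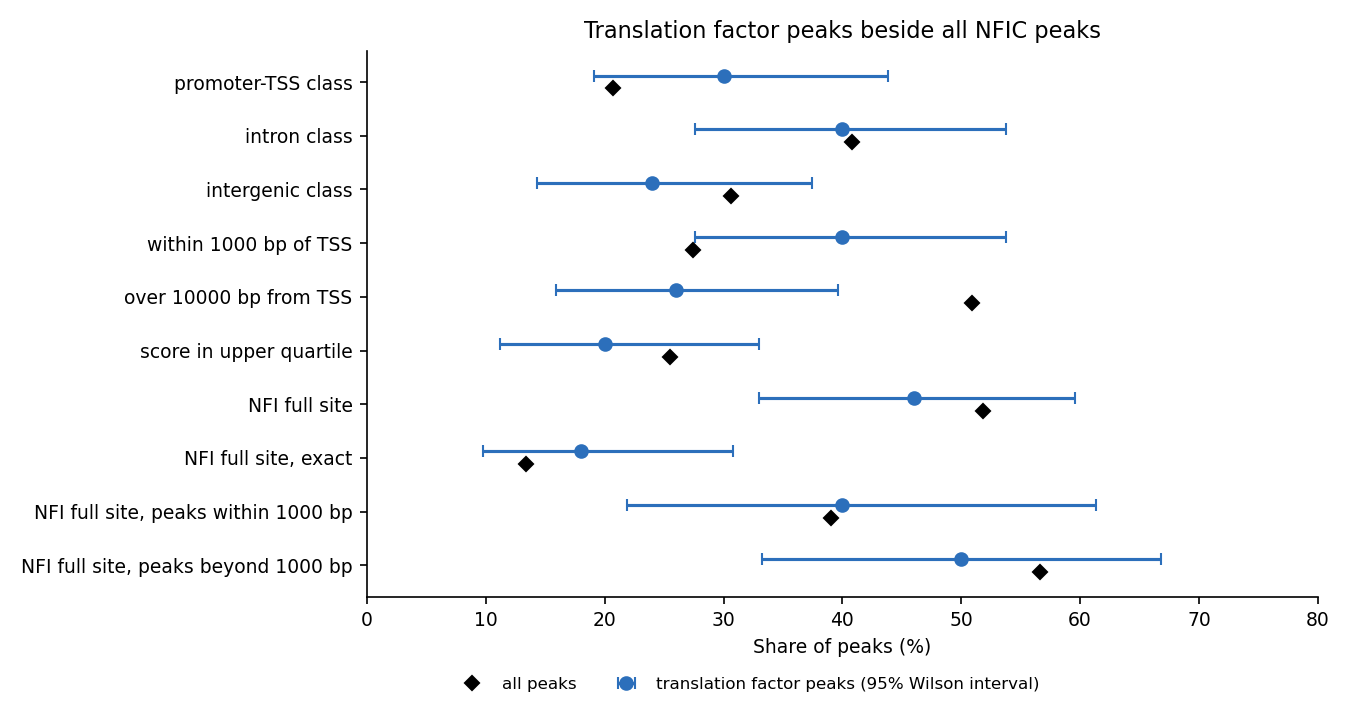
Share of peaks (%) for the 50 translation factor peaks (blue points, 95% Wilson intervals) and for all 15824 peaks (black diamonds), by class, distance, score and NFI full site, where the last 2 rows count only peaks within or beyond 1000 bp. Among the shares drawn, the black diamond lies outside the interval for peaks over 10000 bp from the TSS (26.0% against 50.9%) and, by a small margin, for peaks within 1000 bp (40% against 27.4%).

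By role, both genes of the eEF2 step, 9 of 13 genes of the cap-binding and helicase factors and 3 of 14 eIF3 genes had a peak, beside 37.2% of all protein-coding genes. In the other groups the counts were 3 of 5 for eIF1 and eIF1A, 3 of 6 for eIF2, eIF2A and eIF2D, 2 of 3 for the eIF2 kinases, 3 of 5 for eIF2B, 2 of 4 for the eIF4E-binding proteins, 2 of 5 for eIF5, eIF5A, eIF5B and eIF6, and 3 of 6 for eEF1. Of the methyltransferases of elongation factors, 1 of 7 had a peak under its own name. The groups are small, several of these counts, such as 2 of 5, lie near the share of all genes, and differences between groups were not tested.

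**Figure D3:**
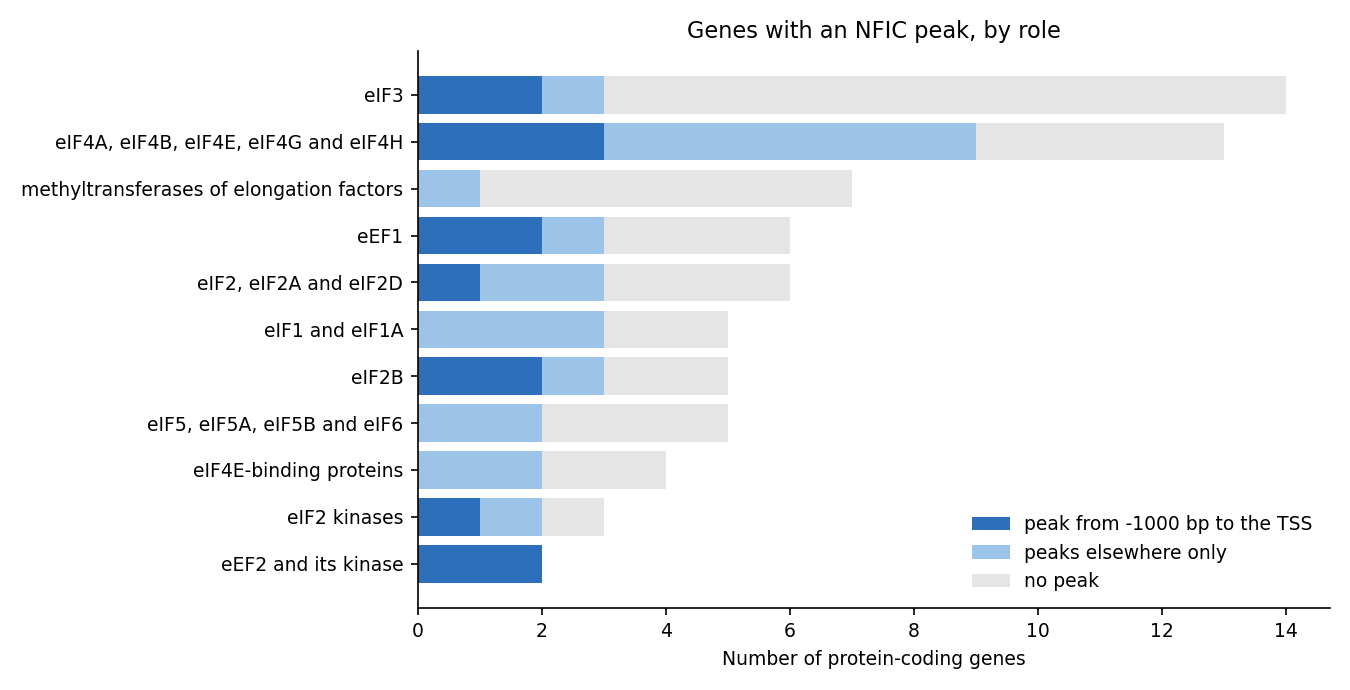
Number of protein-coding genes in each role group (horizontal bars), split into genes with a peak from -1000 bp to the TSS (dark blue), genes with peaks elsewhere only (light blue) and genes with no peak (grey). The eIF3 bar is the longest, with 11 of its 14 genes grey, whereas both genes of the eEF2 group are dark blue.

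Elongation gave the strongest promoter peak and the gene with the most peaks. The peak of *Eef2* was centred at -96 bp, had a score of 18.3, which 2.86% of all peaks reached, and was the only one of the 20 member peaks within 1000 bp to hold an exact NFI full site. The centre of that site lay 78 bp upstream of the TSS and 18 bp from the centre of the peak. The 200-bp window also held the E-box CACGTG, and its GC content was 67.5%.

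*Eef2k*, the gene of the kinase that phosphorylates and inhibits eEF2, had 7 peaks, a number that 0.552% of all protein-coding genes reached. All were within the gene, which lies on chromosome 7, and the distances refer to the nearest of its alternative start sites. Near the upstream starts, a peak at -110 bp (chr7:120843404-120843576) had a score of 9.36, with a GC box and the NFI arm TTGGCA but no full site. The highest of the 7, with a score of 13.7, lay at 507 bp from a downstream start, in intron 1 of 17 (chr7:120851610-120851782), with the substituted site shown above 1 bp from its centre. A neighbour at 1015 bp had a score of 8.37 and no full site, and another, of score 8.37 with an exact site, lay at -2185 bp. Those further into the gene were weaker, with scores of 6.77 at 4168 bp, 6.57 at 14157 bp, where the site was exact, and 5.98 at 24120 bp. Of the 7 peaks, 3 held a full site, and none lay in the part of the gene beyond 32478 bp from its most upstream start.

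*Eef1a1* had 3 peaks. In its 200-bp window, the promoter peak at -269 bp, of score 8.96, held GC boxes and the NFI arm TTGGCA but no full site. The others were far upstream, at -46526 bp with a score of 4.98 and at -38817 bp with a score of 4.38, where 76.4% and 87.5% of all peaks scored at least as high. *Eef1g*, a subunit of the exchange factor of eEF1A, had a peak at -441 bp with a score of 6.37 and a site with 1 mismatch, and one in intron 7 of 9 with a score of 6.57. *Eef1e1*, the gene of an auxiliary protein of the aminoacyl-tRNA synthetase complex that is named after eEF1, had a peak of score 6.57 at 11 bp. No peak was assigned to *Eef1a2*, *Eef1b2* or *Eef1d*.

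**Figure D4:**
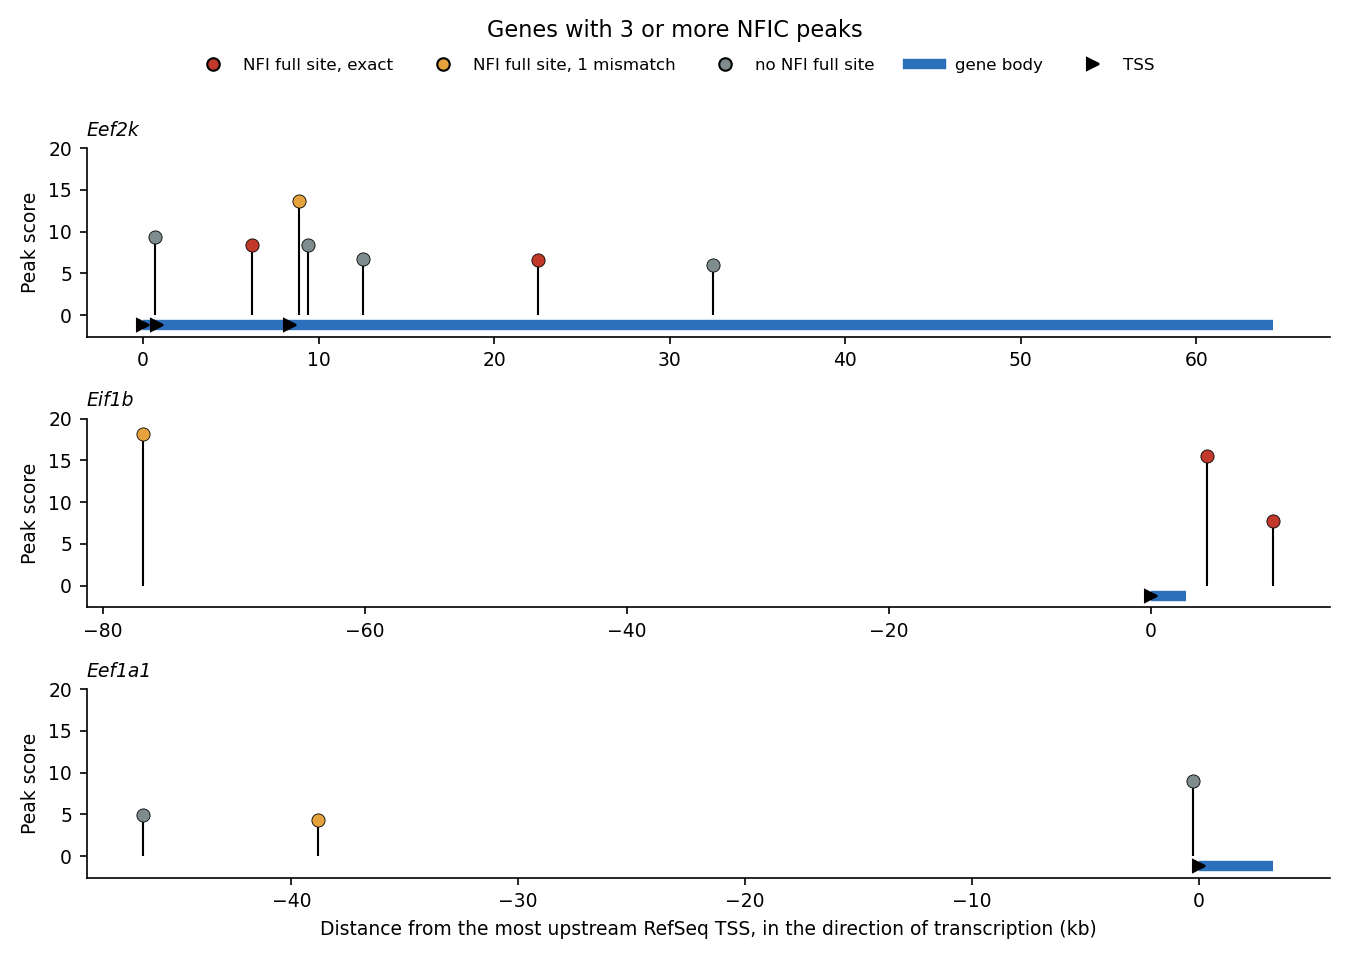
Positions of the peaks of *Eef2k*, *Eif1b* and *Eef1a1* in kb from the most upstream RefSeq TSS in the direction of transcription (x axis) and their scores on the authors' scale (y axis), 1 stem per peak, coloured by NFI full site, with the gene body as a blue bar and start sites as arrowheads. The 7 peaks of *Eef2k* lie inside the gene, the highest (13.7) just after its downstream start, whereas *Eif1b* and *Eef1a1* have their peaks outside short gene bodies.

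Start codon selection and scanning involve eIF1 and eIF1A, and in this group every peak was away from the promoter. This covers 3 genes with a peak. Of all genes with a peak, 51.2% had only peaks further than 1000 bp from the TSS, and the difference was not tested. *Eif1b*, a close paralogue of *Eif1*, had 3 peaks and the second highest score among members, 18.1, at -76910 bp (chr9:120415610-120415782). That peak lies in intron 3 of 16 of another gene, *Myrip*, and was listed under *Eif1b* because its TSS was the nearest. The other peaks were downstream of the gene, at 4294 bp with a score of 15.5 (chr9:120496814-120496986) and at 9368 bp with a score of 7.77, and both held exact sites. *Eif1* had peaks at -24465 bp, with a score of 6.77, and at 3925 bp, with a score of 4.58 and a site with 1 mismatch. *Eif1a* had a peak of score 5.98 in its intron 2, at 9586 bp, and one of score 5.38 with an exact site at 39292 bp. *Eif1ax* and *Eif1ad* had none.

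The eIF2 complex carries the initiator tRNA, eIF2B recharges it with GTP, and kinases that phosphorylate it lower global initiation. *Eif2s2*, the gene of the beta subunit, had a peak of score 4.58 at -14 bp with a GC box, whereas *Eif2s1*, *Eif2s3x* and *Eif2s3y* had none. *Eif2d*, which acts in reinitiation, had a peak of score 6.57 at 9 bp with both a site of 1 mismatch and a GC box, and *Eif2a*, the gene of a separate initiator tRNA carrier, a peak of score 4.98 at -6016 bp. For eIF2B, *Eif2b2* had its highest peak at -7016 bp (score 12.9, chr12:85212379-85212551), without a full site and on a LINE element, and a promoter peak at -161 bp with a score of 5.78. *Eif2b3* had a peak of score 5.18 at -19 bp with a site of 1 mismatch, and *Eif2b1* an exact site under a peak of score 7.37 in intron 4 of 8. *Eif2b4* and *Eif2b5* had no peak. Among the kinases, *Eif2ak4*, which encodes the amino acid sensor GCN2, had a promoter peak at -160 bp with a score of 3.98 and one at 13203 bp with a score of 7.97. *Eif2ak1*, which encodes the haem-regulated kinase, had a peak of score 4.58, listed at -51723 bp. In the RefSeq copy used here that peak lies within *Eif2ak1*, 2347 bp from a start site, and it was the only one of the 50 whose distance was not the same in both annotations. *Eif2ak2*, the gene of the kinase PKR, had none.

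eIF3 is the large scaffold on the small ribosomal subunit, and 3 of its 14 genes had a peak, beside 37.2% of all protein-coding genes, each with a score below the median of the list. *Eif3m* had a peak of score 4.58 at -158 bp, which also lay 64 bp from the start of *Gm38521*. *Eif3h* had a peak of score 4.78 in intron 1 of 7. The peak of *Eif3j1* at -60 bp had a score of 3.39, the lowest in the list. None of the 3 windows held an NFI full site, which 51.8% of all peaks held. The promoter windows of *Eif3m* and *Eif3j1* held GC boxes, as did 54.5% of all peaks within 1000 bp. The other 11 eIF3 genes had no peak, among them *Eif3a*, *Eif3b* and *Eif3c*.

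In the cap-binding complex, eIF4E holds the cap, eIF4G is the scaffold and eIF4A the RNA helicase. By number this group had the most genes carrying a peak, 9 of 13, beside 37.2% of all protein-coding genes. By share the eEF2 group, with both of its genes, was higher. All 3 genes of the eIF4G family had at least 1. *Eif4g2*, whose product lacks the eIF4E-binding part of eIF4G, had peaks of score 10.6 at 588 bp (chr7:111082356-111082528) and 7.37 at -168 bp (chr7:111083112-111083284), each with a substituted site at position 10. *Eif4g1* had a peak of score 9.96 in intron 7 of 32 (chr16:20678082-20678254), without a full site. *Eif4g3* had a peak of score 8.76 at -62338 bp, in intron 5 of 19 of *Ece1* (chr4:137931032-137931204), and one of score 6.57 with an exact site in its own intron 1.

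The 3 helicase genes *Eif4a1*, *Eif4a2* and *Eif4a3* had a peak too (beside 37.2% of all protein-coding genes), each in a different place. *Eif4a2* had a promoter peak at -196 bp with a score of 8.56, a site with 1 mismatch and a GC box. *Eif4a1* had a peak of score 5.38 at 1095 bp, in intron 1 of 10, with a GC box. *Eif4a3*, whose product is a core of the exon junction complex on spliced mRNA, had an exact site under a peak of score 7.77 at 13796 bp. That peak was classed as a transcript end and lay beyond *Eif4a3* itself, which is 11681 bp long. Of the eIF4E family, *Eif4e3* had a distal peak of score 13.7 at 61880 bp (chr6:99604805-99604977), and *Eif4e2*, the gene of a cap-binding protein linked to repression, a peak of score 5.78 at -8 bp. *Eif4b*, a cofactor of the helicase, had a peak of score 5.98 at -21436 bp. *Eif4e* itself, *Eif4e1b*, *Eif4h* and *Eif4a3l1* had none. Of the proteins that hold back eIF4E, *Eif4ebp1*, a target of mTORC1, had a peak of score 9.16 at 893 bp in intron 1 of 2 (chr8:27261134-27261306), and *Eif4ebp3* one of score 6.37 in its 3′ UTR. *Eif4ebp2* and *Eif4enif1* had none.

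In the group of eIF5, eIF5A, eIF5B and eIF6, *Eif5b*, which joins the ribosomal subunits, had a peak of score 6.77 in intron 1 of 23, and *Eif5a*, which relieves stalled ribosomes, one of score 6.97 at 338 bp. *Eif5*, *Eif5a2* and *Eif6* had none. Among the methyltransferases, *Eef1akmt2*, which modifies a lysine of eEF1A, had a peak of score 3.98 at 141 bp, in its exon 1. *Eef1aknmt* is listed under its older symbol *Mettl13* and so fell outside the naming rule. It had 2 peaks, one of score 5.78 with an exact NFI full site at 161 bp and one of score 4.38 at -1702 bp.

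The NFI full site was searched in 200 bp centred on each peak, allowing 1 mismatch among its 8 fixed bases, as a description of sequence and not of a bound base. It was present in 23 of the 50 member windows (46.0%, 33.0 to 59.6), beside 51.8% of all peaks, and without a mismatch in 9 (18%, 9.77 to 30.8), beside 13.4%. Within 1000 bp of the TSS the counts were 8 of 20 (40%, 21.9 to 61.3), beside 39.0%, and further out 15 of 30 (50%, 33.2 to 66.8), beside 56.6%. Of the 9 windows with an exact site, 8 were beyond 1000 bp (88.9%, beside 87.8% of all such windows). The site nearest to the centre was at a median of 25 bp from it in members and 24 bp in all peaks. Member peaks with a site had a median score of 7.37 (n = 23, range 4.38 to 18.3), and those without a site 6.57 (n = 27, 3.39 to 12.9). Over all peaks these medians were 7.17 and 5.98.

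Other motifs were searched as exact letters on both strands in the same windows. The GC box GGGCGG was present in 12 of 20 windows within 1000 bp (60.0%, 38.7 to 78.1), beside 54.5% of all such peaks, and in 1 of 30 further out (3.33%), beside 8.46%. The exception further out was *Eif4a1*. Of the 20 windows within 1000 bp, 9 held a GC box and no NFI full site (45.0%, beside 36.0% of all such peaks), 5 a site and no GC box (25%, beside 20.5%), 3 both (15.0%, beside 18.5%) and 3 neither (15.0%, beside 25%). The 9 windows with only a GC box had a median score of 4.58, from 3.39 at *Eif3j1* to 9.36 at *Eef2k*. The 5 with only an NFI site, at *Eef2*, *Eef2k*, *Eif4g2*, *Eef1g* and *Eif2b3*, had a median score of 10.6 (range 5.18 to 18.3). Over all peaks within 1000 bp, the corresponding medians were 5.78 and 7.57. The NFI arm TTGGCA, which overlaps some of the full sites, was in 30.0% of member windows and 33.6% of all, and the CCAAT box of NFY in 28.0% and 24.7%. The E-box CACGTG was in 3 windows (6%, beside 4.59%), the ETS motif CCGGAAG in 3 (6%, beside 3.55%) and the YY1 motif AAGATGGC in 2 (4%, beside 1.21%). The CRE TGACGTCA was in none of the 50 windows, for which the interval reaches 7.13%, and in 0.543% of all peaks. Peaks on annotated repeats numbered 6 (12.0%, beside 10.5%).

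Promoter sequences were also searched whether or not a peak was called. From 250 bp before to 50 bp after any RefSeq TSS, an NFI full site was present at 16 of the 70 members (22.9%), beside 18.3% of all protein-coding genes. With a peak within 1000 bp, counting that of *Eef1aknmt* too, 9 of 19 members had such a promoter site (47.4%), beside 29.5% of all genes with such a peak. Without one it was 7 of 51 (13.7%), beside 15.9%, and these were *Eef1akmt3*, *Eif1ax*, *Eif3b*, *Eif3h*, *Eif4ebp3*, *Eif4g3* and *Eif5*. The group of 19 is small, no interval was drawn for these shares, and the differences were not tested. An exact site was found in the *Eef2* promoter alone among members, and in 0.890% of all protein-coding genes.

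For members without a peak of their own, the median distance from the TSS to the nearest peak of any gene was 30736 bp (n = 37), beside 75657 bp for all genes without a peak, and it was over 10000 bp for 33 of them (89.2%), beside 90.4% of all genes without a peak. Over all 70 members the median was 10235 bp, beside 29576 bp for all protein-coding genes.

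Other translation genes of a list of 47 that the naming rule does not take had a peak in 25 cases (53.2%, beside 37.2% of all protein-coding genes), and 8 of these had one in the promoter window (17.0% of 47, beside 10.7%). *Larp1*, an RNA-binding repressor of mRNAs of the translation machinery, had peaks with scores up to 18.7 at -35688 bp, and a promoter peak of score 7.37 at -45 bp. *Pdcd4*, an inhibitor of eIF4A, had scores up to 11.4 and a promoter peak of score 9.96 at -244 bp. *Mknk2*, which encodes a kinase of eIF4E, had peaks of score 15.9 at 6005 bp and 14.1 at -1975 bp. *Denr*, also a reinitiation factor, had a peak of score 9.96 at -96 bp, and *Mtrf1l*, a mitochondrial release factor, one of score 17.1 at -529 bp. Of the 6 termination and recycling genes, *Etf1* was the single one with a peak, at 30685 bp. The remaining promoter peaks were at *Paip2b*, *Dhx29*, *Dhx9* and *Dph7*.

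The tissue label was set against marker genes, although a peak shows binding and not expression. A peak was assigned to 8 of 9 acinar markers, all but *Prss2*, to 1 of 6 endocrine markers, *Chga*, and to 3 of 4 ductal markers, all but *Cftr*, beside 37.2% of all protein-coding genes. Promoter peaks among these markers were at *Cela2a* and *Bhlha15*, both with scores of 17.9, and at *Cpa1*, with a score of 8.56.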

How the data were processed

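NFIC ChIP-Seq of mouse pancreas (3 libraries, 1 input) was analysed from the merged list of 15824 peaks that the authors deposited. The submitters' notes name BWA, Picard, MACS2 and mm10, with thresholds and versions not given in the sources used here. The published methods, in a paragraph on downloaded data, name RUbioSeq+ for alignment and calling, and HOMER for merging, calling and annotation. The columns of the list are those of HOMER, whereas the caller in the submitters' notes is MACS2. The sources thus name different callers, and which of them produced this list was not settled here. The deposited peak score has no stated scale. The focus ratio, a fraction per the file headers, and the distance to the TSS are the authors' values. There were 0 columns with values per sample, so the list gives neither depth nor replicate error. Gene symbols, nearest TSSs and distances were taken from the list, where all protein-coding genes were matched by gene ID and members by symbol, and sequences and gene models from RefSeq GRCm38.p6, the assembly of mm10. The distance recomputed there was the same within 1 bp for 98.0% of member peaks and 92.7% of all peaks. Motifs were searched in 200 bp centred on each peak, and all 1000 sites planted in simulated windows were found.

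The members, role groups and gene lists were chosen with earlier results of these data known. Full values were given for the 10 members with the highest peak scores, those with 3 or more peaks, and those with an exact NFI full site within 1000 bp, and the rest are named with fewer. The exact sites of *Eif4a3* and *Eif2b1* were shown after their values were seen. Wilson intervals came from statsmodels 0.14.6, with Python 3.11, numpy 2.4.6, pandas 2.3.3 and pysam 0.24.0. The alternatives varied the score limit, promoter window, annotation, names counted, merging of peaks and motif search.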

Additional observations from a re-analysis of the deposited data

How the results depend on the processing

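The counts of members depended most on the score. With only peaks at or above the median score, 20 of 70 members had a peak (28.6%, beside 21.9% of all protein-coding genes) and 5 a promoter peak (7.14%, beside 5.57%). With only the upper quartile, 8 had a peak (11.4%, beside 12.5%) and 2, *Eef2* and *Eef2k*, a promoter peak (2.86%, beside 2.77%). With no mismatch allowed, the share of member peaks with an NFI full site was 18%. Other alternatives moved the counts less. Members with a promoter peak numbered 13 to 18 for other windows and annotations (18.6% to 25.7%, beside 13.1% to 18.1% of all genes). When regulators and paralogues outside the core factors were left out, 11 of 52 had one (21.2%, beside 10.7%) and 26 of 52 any peak (50%, beside 37.2%). Within 10000 bp of any RefSeq TSS, 34 members had a peak (48.6%, beside 33.7%). Counting *Eef1aknmt* under its older symbol, chosen after seeing the data, gave 34 members with a peak. The share with a site was 46.0% in the interval as deposited, 50% in 400 bp and 51.7% at or above the median score, beside 50%, 58.3% and 59.4% of all peaks, and the median score 6.57 to 6.77. Merging peaks within 500 bp left 50. Leaving out a replicate could not be run, since the list gives no value per library. No paired analysis was possible because the merged list carries no replicate numbers. The list does not give the depth of the libraries, so a gene without a peak may be one below detection.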
